A study of Astyanax mexicanus with 12 samples.

Results

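The livers compared here came from laboratory cave fish and laboratory surface fish of Astyanax mexicanus, the Mexican tetra, a species with blind cave populations and a sighted river form. They make up 6 of the 12 liver libraries of the study. The labels chose them, and no measured value did. The cave fish are adults titled Pachón Lab, in the group Cavefish and the environment lab (3 livers), and the surface fish are adults titled Surface Lab, in the group Surface fish and the environment lab (3 livers). Pachón is the name of a cave population. All fish had been fasted for 12 hours, and poly(A) RNA was read as stranded libraries with single reads of 75 nt. The labels name no sex, age or stock, and neither the hour of dissection nor whether the fish of a form were siblings. The p-values therefore measure the spread between these livers only, and form cannot be told apart from any other way in which the 2 sets of fish differed. The remaining 6 livers, from wild-caught cave and surface fish, served to ask whether a difference between the laboratory fish had the same direction in fish that share no library with them.

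The liver stores and releases glucose, builds and exports fat, breaks down amino acids and foreign compounds, and secretes most plasma proteins, among them complement and clotting factors. Much of this work follows the daily clock and the feeding state. Pachón cave fish are known for large fat stores, for insulin resistance and for weak daily rhythms. The liver transcriptome of the cave form against that of the surface form, both kept in the laboratory, is the comparison that this set of fish allows.

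Levels are in TPM (a length-scaled transcript abundance with the same total in each library), with livers 1, 2 and 3 of a form given in that order. The read depth behind a TPM value is unknown. Differences are cave minus surface on the scale log2(TPM + 1), with the standard error from limma. A gene is called where its limma p, adjusted by Benjamini-Hochberg over all genes tested, is under 0.05. Of 27420 genes in the table, 12113 reached 1 TPM in at least 3 of the 6 livers and were tested. A gene under 1 TPM in every liver of a form was tested only where all 3 livers of the other form reached it. For such genes the filter fixed the direction of the difference.

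The cave livers were more alike than the surface livers. Spearman correlations between livers ran from 0.898 to 0.950 within the cave form, from 0.883 to 0.887 within the surface form and from 0.764 to 0.840 between the forms. The first principal component held 50.4% of the variance and separated the forms. The second held 19.7% and separated surface liver 2, at 54.3, from surface liver 3, at -44.5, with the cave livers between -4.57 and 13.9. Surface liver 3 was the closest to the cave livers (0.803 to 0.840, against 0.764 to 0.787 for surface liver 1 and 0.784 to 0.810 for surface liver 2). Ribosomal protein genes took 20.5 ± 3.35% of all transcripts in cave livers and 14.8 ± 2.89% in surface livers (SD, n = 3 each, two-sided exact permutation p = 0.2, where 0.1 is the smallest possible). All livers read as liver: the summed level of 27 hepatocyte markers was 144596 to 192753 TPM in cave and 160741 to 183958 TPM in surface livers. The fatty acid carrier fabp10a, the most abundant cave transcript, stood at 60008, 69567 and 32989 TPM in cave livers, against 39098, 15205 and 48764 TPM in surface livers.

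Of the 12113 genes, 855 were called (7.06%), 589 higher in cave livers (4.86%) and 266 lower (2.2%). The 3 cave livers lay wholly above the 3 surface livers in 2261 genes (18.7%) and wholly below them in 1049 (8.66%). The direction split depended on the scaling. The median difference over all genes was 0.10, and with libraries centred by median-of-ratios factors it was -0.04. With those factors 873 genes were called, 488 higher (4.03%) and 385 lower (3.18%), so that the share of calls that were higher was 55.9%, against 68.9% without them. The cave livers then lay wholly above the surface livers in 1830 genes (15.1%) and wholly below them in 2024 (16.7%). Counts and shares without overlap that are given for lists below are those without these factors. The number called also fell to 493 without cave liver 3, 549 without cave liver 2 and 569 without surface liver 1, and reached 968 without surface liver 3. Among the called genes, 73 were higher and 63 lower by at least 3 on the log2 scale. A symbol was missing for 42.8% of called genes and for 18.97% of tested genes.

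Some calls described below did not hold under other settings. Median-of-ratios scaling ended those of irf1b, agpat4, cox5b2, ccr9a, cyp7b1, ebp, gpx4a, timp2a, lyve1b, c4, pparab, hp, bckdha and the named copies of b2m, mt2 and isg15. Leaving out each of the 6 livers in turn gave 6 fits with 5 livers. The calls of cetp, ccr9a, cyp7b1, fabp7a, ebp, gpx4a, timp2a, pfkpa, tap1, gstt1a, lyve1b, c4, psmd13, bckdha and the named copies of mdh1aa, c1s, b2m, gstt1b, mt2 and isg15 held in 1 of these fits, and that of pparab in none. Those of psmb8a, gyg2, ABCA1, pfkfb4a, agpat4, cox5b2, prodha, c3b.2, fabp11a, SLC11A2, slc7a10a, eif4ebp3 and hp held in 2. Those of glud1a, lipca, cbln5, hpdb, slc13a4, f7i, erap2, dbpb and most other genes with an adjusted p under 0.01 held in all 6. No named call changed its sign.

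**Figure D1:**
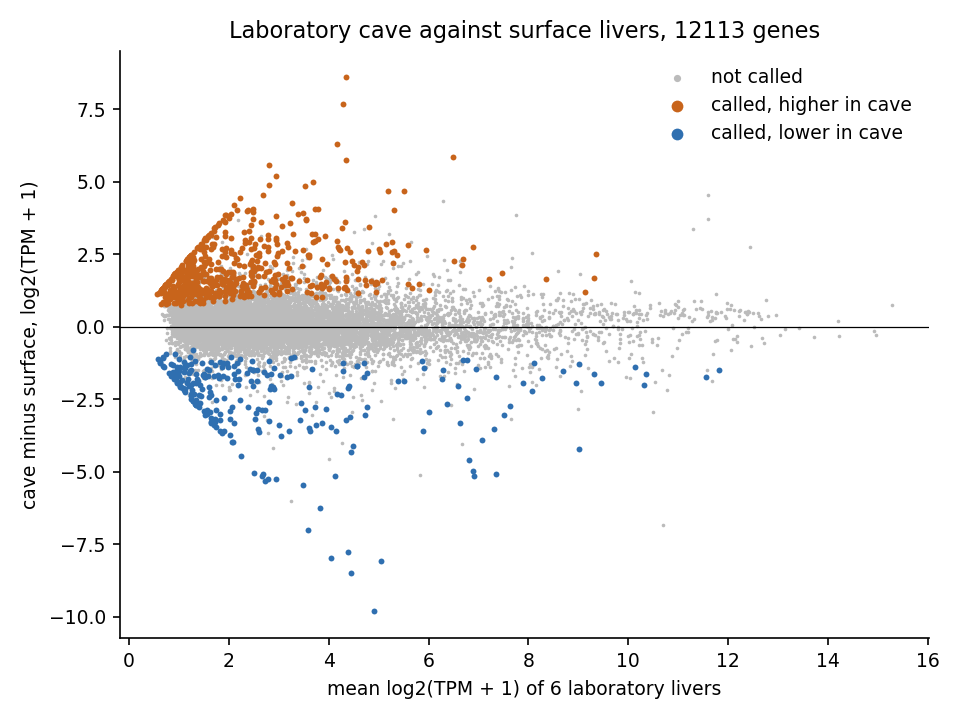
Each point is a gene, with its mean log2(TPM + 1) over the 6 laboratory livers on the x axis and the cave minus surface difference in log2(TPM + 1) on the y axis. The 589 called higher genes are orange, the 266 called lower genes blue and the rest grey. None of the 10 genes with the highest mean level in either form was called.

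Several enzymes and carriers that surface livers made in quantity were nearly missing from cave livers. Glutamate dehydrogenase glud1a (ENSAMXG00000021266), which releases ammonia from glutamate in mitochondria, stood at 0, 0.14 and 0 TPM in cave livers, against 304, 209 and 279 TPM in surface livers (log2 difference -7.97 ± 0.27, adjusted p = 9.90e-06). No cave liver reached 0.2 TPM and every surface liver was above 200 TPM. Its paralog glud1b, an enzyme of the same step, overlapped between the forms at 609, 535 and 574 TPM in cave livers, against 904, 392 and 689.8 TPM in surface livers (-0.13 ± 0.35, adjusted p = 0.87). The gene cbln5 (ENSAMXG00000029540), of the cerebellin family, stood at 0, 0 and 0.49 TPM in cave livers, against 306, 1332 and 170.5 TPM in surface livers (-8.497 ± 0.69, adjusted p = 4.29e-04). Hepatic lipase lipca (ENSAMXG00000012304), which acts on the fat of circulating lipoproteins, stood at 0.33, 0.94 and 0.86 TPM in cave livers, against 117, 88.7 and 37.1 TPM in surface livers (-5.45 ± 0.44, adjusted p = 4.11e-04). The groups were again far apart, with no cave liver above 1 TPM.

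Inositol oxygenase miox, the first enzyme of inositol breakdown, stood at 67.5, 22.7 and 4.05 TPM in cave livers, against 527, 635 and 1094 TPM in surface livers (-5.15 ± 0.85, adjusted p = 0.0102); the cave livers themselves covered a wide range. Mitochondrial isocitrate dehydrogenase idh2, which makes NADPH, stood at 4.89, 3.85 and 2.51 TPM in cave livers, against 75.4, 27.9 and 43.4 TPM in surface livers (-3.31 ± 0.40, adjusted p = 0.00264). Its cytosolic counterpart idh1 did not pass, with 267, 207 and 234 TPM in cave livers, against 355, 307 and 409.96 TPM in surface livers (-0.596 ± 0.27, adjusted p = 0.261). The urate pathway hydrolase urahb stood at 0.24, 1.26 and 1.01 TPM in cave livers, against 37.8, 17.8 and 10.2 TPM in surface livers (-3.501 ± 0.47, adjusted p = 0.00405). The organic anion carrier slc22a7a stood at 0.04, 0.07 and 0.09 TPM in cave livers, against 4.66, 20.7 and 16.5 TPM in surface livers (-3.597 ± 0.47, adjusted p = 0.00371). The cholesterol efflux transporter ABCA1 stood at 2.72, 0.17 and 0.19 TPM in cave livers, against 44.7, 26.6 and 6.39 TPM in surface livers (-3.604 ± 0.72, adjusted p = 0.0222). The forms did not overlap, and surface liver 3 held the least ABCA1 of its form. The vascular co-receptor nrp1b stood at 1.28, 1.98 and 1.2 TPM in cave livers, against 18.7, 31.6 and 25.8 TPM in surface livers (-3.39 ± 0.29, adjusted p = 5.13e-04). All 3 cave livers had 0 TPM listed for the G protein regulator rgs11, which stood at 7.75, 10.6 and 12.3 TPM in the surface livers (adjusted p = 1.73e-04).

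The largest rises were as sharp. The gene hpdb (ENSAMXG00000015502), 1 of a pair of genes for the dioxygenase that acts on 4-hydroxyphenylpyruvate in tyrosine breakdown, stood at 179, 139 and 132 TPM in cave livers, against 0.2, 0.22 and 13.5 TPM in surface livers (5.76 ± 0.89, adjusted p = 0.0076). Surface liver 3 held far more than the other surface livers but stayed far below the lowest cave liver. Its paralog hpda, the abundant copy, stood at 3325, 4671 and 3640.01 TPM in cave livers, against 5849, 5573 and 5212 TPM in surface livers (-0.53 ± 0.23, adjusted p = 0.242) and did not pass. The sulphate carrier gene slc13a4 (ENSAMXG00000001709) stood at 52.9, 36.2 and 51.1 TPM in cave livers, against 0.11, 0.29 and 0.42 TPM in surface livers (5.22 ± 0.26, adjusted p = 7.26e-05). Complement component c4 (ENSAMXG00000012282), which amplifies the classical complement cascade, stood at 277, 109.6 and 199.9 TPM in cave livers, against 39.2, 0.27 and 6.14 TPM in surface livers (4.68 ± 1.09, adjusted p = 0.0434), with a wide range among the surface livers.

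The kinesin motor gene kif1ab stood at 98.3, 21.3 and 12.4 TPM in cave livers, against 0.47, 0.41 and 0.15 TPM in surface livers (4.53 ± 0.66, adjusted p = 0.00574). The serpin family gene serpine3 stood at 17.04, 19.01 and 24.7 TPM in cave livers, against 0.06, 0.3 and 0.53 TPM in surface livers (4.04 ± 0.26, adjusted p = 1.69e-04). The surface receptor gene cdcp1a stood at 13.6, 14.1 and 13.6 TPM in cave livers, against 0.07, 0.1 and 0.07 TPM in surface livers (3.77 ± 0.20, adjusted p = 9.12e-05), with cave livers within 1 TPM of each other. The integrin-binding gene nisch stood at 27.9, 52.9 and 48.9 TPM in cave livers, against 1.91, 2.74 and 2.06 TPM in surface livers (3.73 ± 0.32, adjusted p = 5.28e-04). The gene accs, of an aminotransferase-like family, had 22.7, 20.1 and 20.6 TPM in cave livers, against 0.31, 1.27 and 0.9 TPM in surface livers (3.63 ± 0.27, adjusted p = 3.09e-04). No cave liver came near a surface liver in either gene. The metalloproteinase inhibitor timp2a stood at 154, 78.2 and 63.3 TPM in cave livers, against 31.3, 2.83 and 3.92 TPM in surface livers (3.45 ± 0.78, adjusted p = 0.0393), and surface liver 1 held more than the other surface livers. The cyclic nucleotide-gated channel subunit cngb3.2, of a family used by photoreceptors, was at 13.7, 11.2 and 34.5 TPM in cave livers and was listed at 0 in all 3 surface livers (adjusted p = 8.33e-04). Myoglobin mb, the oxygen-binding protein of muscle, stood at 23.1, 22.4 and 17.9 TPM in cave livers, against 0.1, 0.15 and 1.28 TPM in surface livers (3.95 ± 0.33, adjusted p = 5.12e-04). Another muscle gene, smpx, had 32.9, 19.7 and 33.7 TPM in cave livers, against 1.92, 1.92 and 0 TPM in surface livers (3.83 ± 0.46, adjusted p = 0.00263). The other 21 muscle markers summed to 0.63 to 1.11 TPM in cave livers and 0.23 to 16.8 TPM in surface livers, and none of the 21 reached 1 TPM in a cave liver. Of the 15 largest rises, si:ch211-191i18.2, si:ch211-239j9.1 and prr15lb have no role stated here, and their levels are in the plot of the largest differences.

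**Figure D2:**
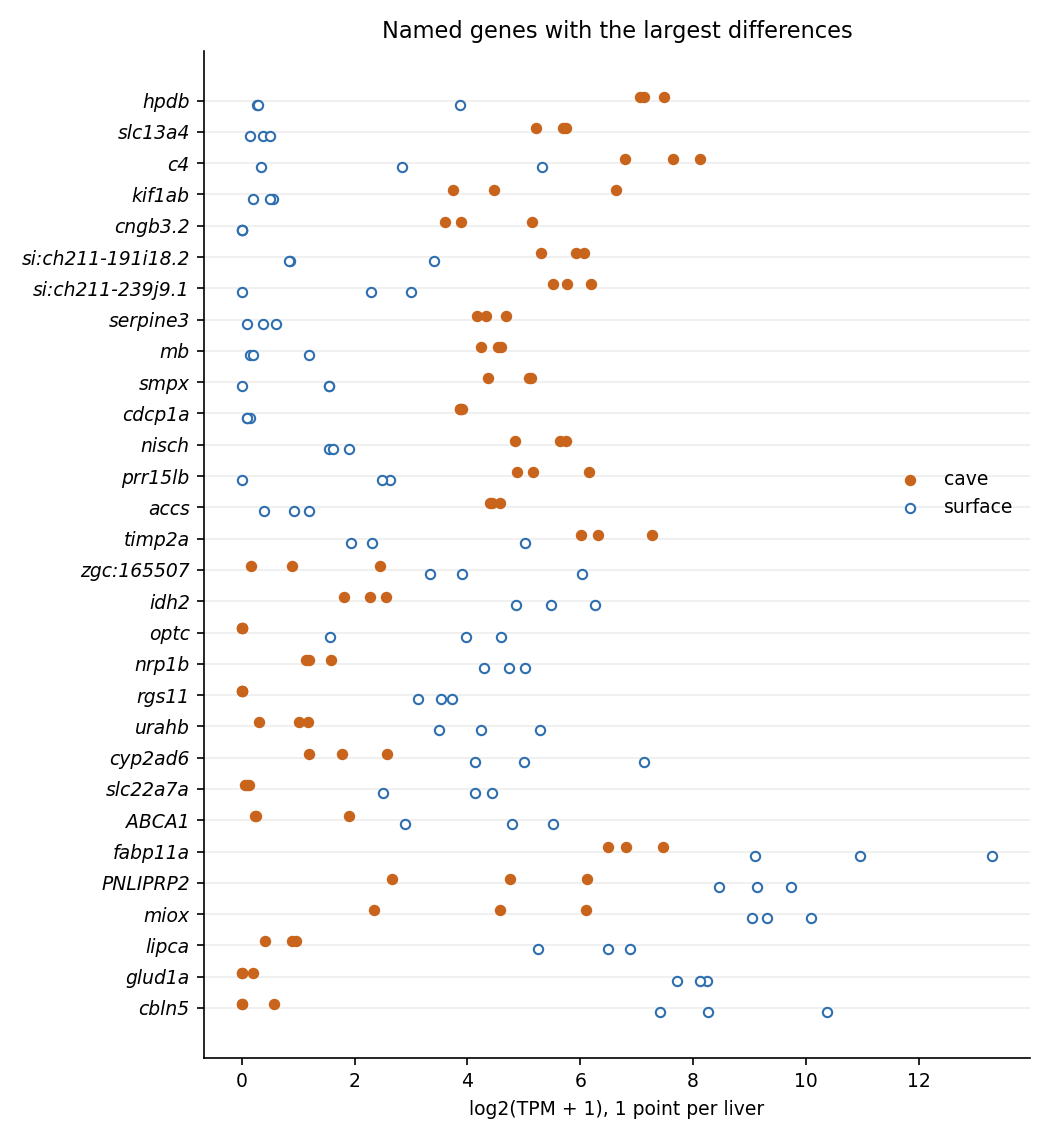
Each row is a gene and each point a liver, at its log2(TPM + 1) on the x axis, cave livers filled orange and surface livers open blue. The upper 15 genes were called higher and the lower 15 called lower in cave livers; no row has overlapping forms, and the surface livers of hpdb, c4 and timp2a are spread widely.

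Pathway lists gave few called members each, and the plot of gene lists shows their counts beside the medians. For every list, the shares over all genes tested to set beside its calls are 4.86% higher and 2.2% lower. The list of glycolysis genes had 2 higher and 28 that did not pass of 31 tested, and 1 further called member is not reported here. Of all genes 4.86% were called higher. The 2 higher glycolysis genes had low levels. The phosphofructokinase gene pfkpa had 3.87, 3.48 and 1.77 TPM in cave livers, against 0.72, 0.82 and 0.83 TPM in surface livers (1.13 ± 0.26, adjusted p = 0.0396). The bifunctional regulator pfkfb4a had 6.23, 4.13 and 5.16 TPM in cave livers, against 1.33, 2.04 and 1.76 TPM in surface livers (1.18 ± 0.24, adjusted p = 0.0238). Gluconeogenesis had 1 lower and 24 not passing of 25. Its lower member was a malate dehydrogenase gene that shares the symbol mdh1aa with other genes (ENSAMXG00000032817), at 15.1, 13.9 and 11.3 TPM in cave livers, against 65.96, 53.1 and 29.1 TPM in surface livers (-1.73 ± 0.36, adjusted p = 0.025). A more abundant copy (ENSAMXG00000002785) also lay wholly below, with means of 152 TPM in cave and 483 TPM in surface livers. It did not pass (-1.55 ± 0.39, adjusted p = 0.0545), but with median-of-ratios scaling it did (adjusted p = 0.0333). How reads are split between such copies is uncertain. Among those not passing, fructose bisphosphatase fbp1b lay wholly below at 1636, 963 and 1497 TPM in cave livers, against 2999, 2072 and 3125 TPM in surface livers (-1.01 ± 0.31, adjusted p = 0.102).

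Glycogen genes had 1 lower and 21 not passing of 22 (2.2% of all genes were called lower). The glycogen primer gyg2 stood at 8.28, 7.41 and 5.58 TPM in cave livers, against 42.97, 66.97 and 20.1 TPM in surface livers (-2.31 ± 0.44, adjusted p = 0.0179). Liver glycogen synthase gys2, at 156, 147 and 121 TPM in cave livers, against 2264, 333 and 237 TPM in surface livers, did not pass (-1.99 ± 0.77, adjusted p = 0.184), and 1 surface liver held the high value. Insulin and growth factor signalling had 1 lower and 45 not passing of 46: the translation repressor eif4ebp3 stood at 4.78, 24.9 and 6.72 TPM in cave livers, against 121, 84.2 and 32.98 TPM in surface livers (-2.75 ± 0.66, adjusted p = 0.0484). The insulin receptor genes overlapped between the forms. Levels of insra were 18.4, 11.01 and 11.3 TPM in cave livers, against 12.2, 14.2 and 8.8 TPM in surface livers (0.18 ± 0.31, adjusted p = 0.786). Levels of insrb were 18.3, 8.49 and 5.37 TPM in cave livers, against 9.47, 9.06 and 5.6 TPM in surface livers (0.25 ± 0.43, adjusted p = 0.787). The tricarboxylic acid cycle list, matched by symbol, had 2 lower and 21 not passing of 23. The 2 were idh2, the NADPH-making enzyme described above, and the mdh1aa copy already counted for gluconeogenesis.

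**Figure D3:**
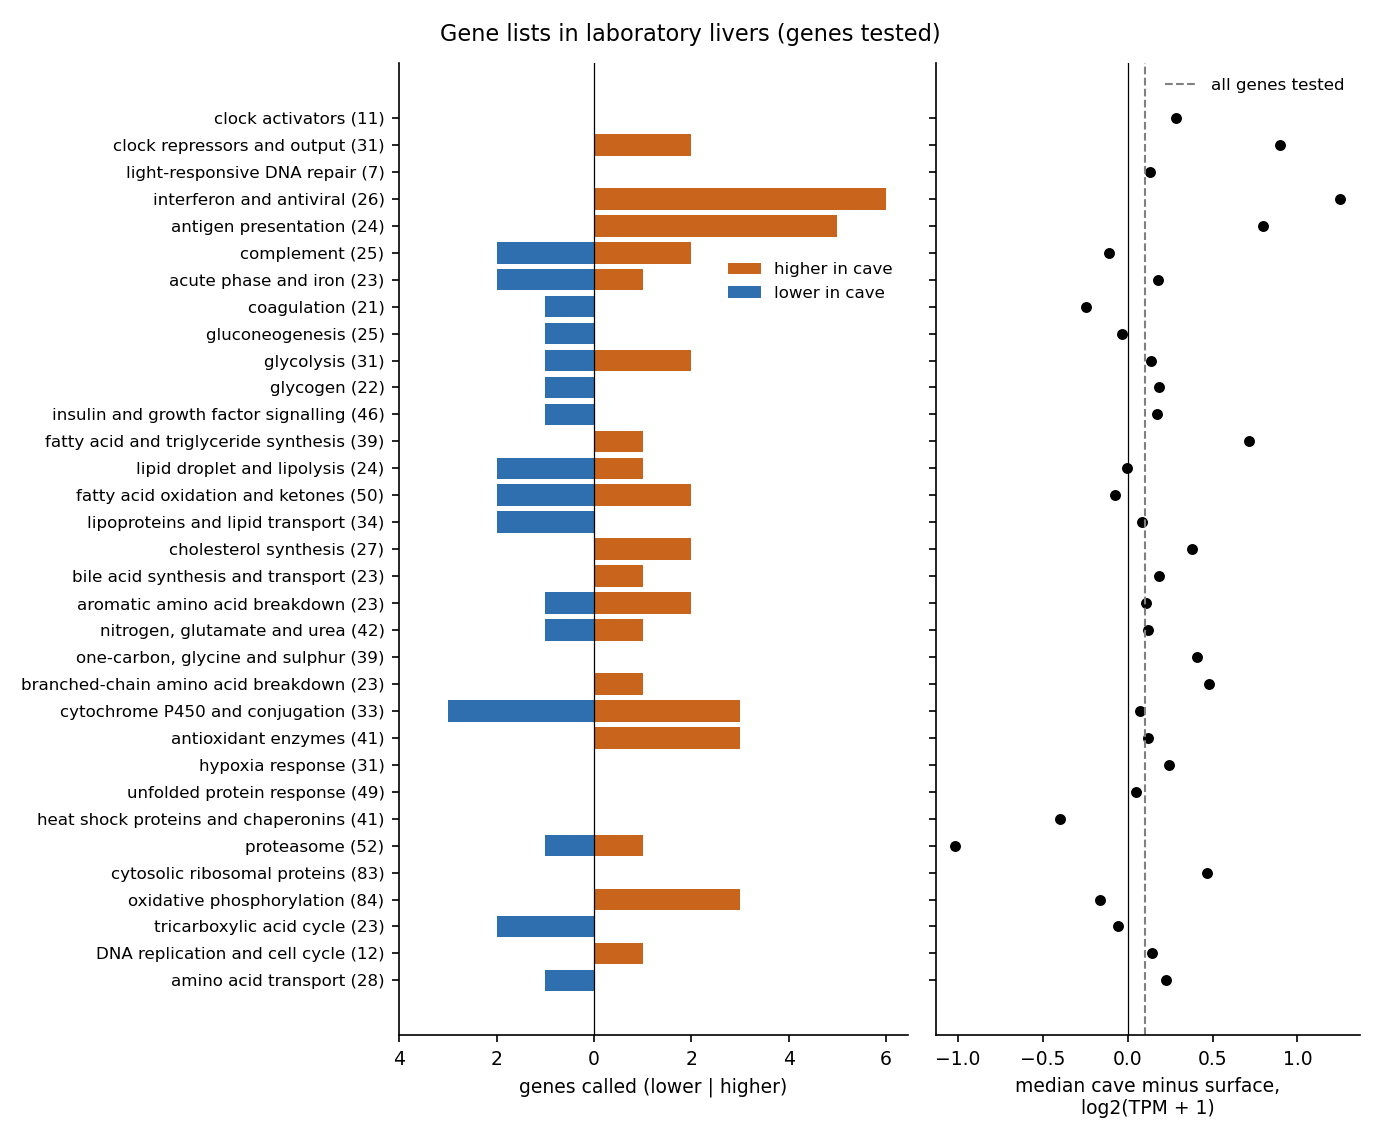
The left panel gives, for each of 33 pathway lists with its number of tested genes, how many were called higher (orange, right of 0) and lower (blue, left of 0) in cave livers. The right panel gives the list's median cave minus surface difference in log2(TPM + 1), with the median of all genes tested, 0.10, as a dashed line; the interferon list lies highest (1.25) and the proteasome list lowest (-1.02).

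Genes that make fat had mostly positive differences, and 1 was called. Of 39 fatty acid and triglyceride synthesis genes, 31 had positive differences, 10 lay wholly above the surface livers (18.7% of all genes did), and the list median was 0.72, against 0.10 for all genes. The called member was agpat4, an acyltransferase of glycerolipid synthesis, at 7.69, 12.4 and 7.87 TPM in cave livers, against 1.93, 0.23 and 2.69 TPM in surface livers (2.09 ± 0.43, adjusted p = 0.0246). Fatty acid synthase fasn stood at 109, 257 and 91.7 TPM in cave livers, against 19.5, 3.79 and 58.5 TPM in surface livers (2.94 ± 0.86, adjusted p = 0.09) and did not pass. The lipogenic regulator thrsp, the most abundant member, stood at 13369.6, 12505 and 20211 TPM in cave livers, against 1249.9, 10 and 18413 TPM in surface livers (4.57 ± 2.25, adjusted p = 0.294). The elongase elovl6 had 93.8, 124 and 119 TPM in cave livers, against 9.02, 0.6 and 111 TPM in surface livers (3.21 ± 1.29, adjusted p = 0.204). Both show the same order among surface livers, with liver 3 at the cave level and liver 2 the lowest. Without surface liver 3, 7 members were called higher; fasn and elovl6 are named here for that pattern, after their values were seen.

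Fat release and transport held falls beside rises. Of 24 lipid droplet and lipolysis genes, 1 was higher, 2 lower and 21 did not pass. Besides lipca, the fatty acid carrier fabp11a was lower at 175, 89.2 and 112 TPM in cave livers, against 1988, 10108 and 549 TPM in surface livers (-4.198 ± 0.92, adjusted p = 0.0341), with a wide range in surface livers. A related carrier, fabp7a, was higher at 18.4, 27.5 and 15.9 TPM in cave livers, against 4.87, 8.52 and 7.17 TPM in surface livers (1.45 ± 0.32, adjusted p = 0.0337). Of 34 lipoprotein genes, 2 were lower and 32 did not pass. The lipoprotein lipase cofactor apoc2 stood at 1503, 1535 and 2029 TPM in cave livers, against 5949, 6645 and 4147 TPM in surface livers (-1.71 ± 0.28, adjusted p = 0.00922). The cholesteryl ester carrier cetp had 117, 119 and 121 TPM in cave livers, against 715, 262 and 529.6 TPM in surface livers (-1.95 ± 0.39, adjusted p = 0.0238). The large lipoprotein scaffold apobb.1 did not pass at 2315, 1585 and 1703 TPM in cave livers, against 464, 443 and 1122 TPM in surface livers (1.59 ± 0.41, adjusted p = 0.0593), although every cave liver exceeded every surface liver.

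Fatty acid oxidation had 2 higher, 2 lower and 46 not passing of 50. Higher was the peroxisomal thioesterase acot8, with 13.1, 20.97 and 14.9 TPM in cave livers, against 3.07, 4.23 and 6.05 TPM in surface livers (1.68 ± 0.31, adjusted p = 0.0165). So was the lipid-sensing receptor pparab, with 22.6, 37.9 and 19.5 TPM in cave livers, against 5.05, 10.6 and 9.35 TPM in surface livers (1.57 ± 0.37, adjusted p = 0.0462). In neither gene did the forms overlap. Lower was the peroxisomal reductase decr2, with 0.33, 0.21 and 0.38 TPM in cave livers, against 4.17, 7.52 and 3.29 TPM in surface livers (-2.14 ± 0.28, adjusted p = 0.00385). The mitochondrial carrier ucp2 was lower too, with 3.64, 2.38 and 2.5 TPM in cave livers, against 12.7, 11.6 and 9.08 TPM in surface livers (-1.66 ± 0.26, adjusted p = 0.00768). Cholesterol synthesis had 2 higher and 25 not passing of 27. Sterol reductase tm7sf2 stood at 12.03, 11.2 and 15.8 TPM in cave livers, against 1.59, 1.63 and 1.27 TPM in surface livers (2.48 ± 0.24, adjusted p = 9.52e-04). The sterol isomerase ebp, near the filter, had 1.98, 1.52 and 1.85 TPM in cave livers, against 0.33, 0.12 and 0.76 TPM in surface livers (1.01 ± 0.22, adjusted p = 0.0349). Bile acid genes had 1 higher, the hydroxylase cyp7b1, at 4.38, 6.94 and 4.66 TPM in cave livers, against 0.92, 1.16 and 2.32 TPM in surface livers (1.38 ± 0.29, adjusted p = 0.0286), and 22 not passing of 23. The rate-limiting enzyme of bile acid synthesis, cyp7a1, varied within both forms, at 1.17, 90.2 and 56.2 TPM in cave and 3.7, 1.35 and 45.1 TPM in surface livers (1.49 ± 1.54, adjusted p = 0.631).

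Clock repressors and output genes had mostly positive differences, and 2 of 31 were called. Of the 31, 26 had positive differences, 13 lay wholly above the surface livers (18.7% of all genes did) and none wholly below (8.66% of all genes did), and the median was 0.90, against 0.10 for all genes. Of all genes 4.86% were called higher. The period gene per3, a core repressor, stood at 18.9, 24.9 and 16.7 TPM in cave livers, against 0.18, 4.94 and 2.39 TPM in surface livers (2.86 ± 0.55, adjusted p = 0.0189). The output activator dbpb had 3.72, 7.63 and 5.4 TPM in cave livers, against 1.13, 1.06 and 0.66 TPM in surface livers (1.72 ± 0.28, adjusted p = 0.00901). The repressors nr1d1 and nr1d2b did not pass, although their forms did not overlap. For nr1d1 the levels were 9.52, 19.1 and 21.01 TPM in cave livers, against 2.93, 7.69 and 2.26 TPM in surface livers (1.796 ± 0.45, adjusted p = 0.0556). For nr1d2b they were 19.7, 19.2 and 14.3 TPM in cave livers, against 1.47, 9.98 and 3.37 TPM in surface livers (1.92 ± 0.51, adjusted p = 0.0676).

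Another period gene, per1a, stood at 10.4, 13.2 and 10.4 TPM in cave livers, against 0.1, 6.78 and 0.13 TPM in surface livers (2.53 ± 0.70, adjusted p = 0.0781). Cryptochrome cry1b had 15.7, 37.4 and 22.5 TPM in cave livers, against 3.26, 8.03 and 10.2 TPM in surface livers (1.71 ± 0.46, adjusted p = 0.0671). For per1a, surface livers 1 and 3 were close to 0 and surface liver 2 was not far below the cave livers. Surface liver 2 was the highest of the surface livers in 21 of the 31 genes, and without it 8 were called higher. Some members went the other way without passing, among them nfil3, at 8.21, 4.49 and 5.0 TPM in cave livers, against 51.9, 9.81 and 7.09 TPM in surface livers (-1.31 ± 0.66, adjusted p = 0.307). Of 11 clock activators none passed; arntl1a, a core activator, stood at 6.44, 6.41 and 7.04 TPM in cave livers, against 6.91, 5.75 and 7.46 TPM in surface livers (-0.01 ± 0.23, adjusted p = 0.986), a similar level in all livers. Of the 11, limma gave 3 an unadjusted p under 0.05, and the fit of all 12 libraries called 1. None of 7 light-responsive DNA repair genes passed, with no unadjusted p under 0.05 by limma. The hour of dissection is not given.

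Interferon and antiviral genes rose in part, and cave livers 1 and 3 held most of the high values. Of 26 tested, 6 were called higher (4.86% of all genes were), none lower, and 20 did not pass. The median was 1.25, against 0.10 for all genes, and 12 of the 26 lay wholly above the surface livers (18.7% of all genes did). The antiviral GTPase mxf was at 2.77, 3.56 and 1.76 TPM in cave livers and was listed at 0 in all 3 surface livers (adjusted p = 0.00264). The ubiquitin-like modifier isg15 (ENSAMXG00000030334, 1 of several genes with that symbol) stood at 306, 6.69 and 102 TPM in cave livers, against 2.1, 0.58 and 0.97 TPM in surface livers (4.87 ± 1.17, adjusted p = 0.0477). Cave liver 2 held far less isg15 than the other cave livers. The interferon regulator irf1b had 29.6, 15.04 and 22.7 TPM in cave livers, against 7.26, 2.2 and 4.74 TPM in surface livers (2.09 ± 0.41, adjusted p = 0.022). Its relative irf8, used by macrophages, had 5.12, 4.83 and 5.96 TPM in cave livers, against 1.98, 1.01 and 0.56 TPM in surface livers (1.58 ± 0.28, adjusted p = 0.0141). A parp12a copy (ENSAMXG00000001021) had 13.2, 11.1 and 17.6 TPM in cave livers, against 2.79, 4.54 and 3.99 TPM in surface livers (1.65 ± 0.28, adjusted p = 0.0123). The forms did not overlap in these 3 genes. The immunoproteasome subunit psmb8a had 21.7, 8.0 and 28.5 TPM in cave livers, against 2.17, 1.85 and 3.2 TPM in surface livers (2.44 ± 0.45, adjusted p = 0.0159).

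Cave liver 2 was the lowest cave liver in 24 of the 26 genes. Genes of this order that did not pass include the RNA sensor dhx58, with 14.2, 1.65 and 8.98 TPM in cave livers, against 0.59, 0.99 and 0.64 TPM in surface livers (2.09 ± 0.58, adjusted p = 0.0777). The signal carrier stat2 had 80.05, 18.8 and 69.5 TPM in cave livers, against 12.4, 18.8 and 18.3 TPM in surface livers (1.49 ± 0.54, adjusted p = 0.161). Here cave liver 2 was at the level of the surface livers. The effector gene ifit8 had 31.1, 1.25 and 16.8 TPM in cave livers, against 0.06, 0 and 0 TPM in surface livers (3.41 ± 0.85, adjusted p = 0.0545). For the kinase eif2ak2 the levels were 13.5, 2.42 and 12.8 TPM in cave livers, against 0.96, 1.8 and 1.56 TPM in surface livers (1.87 ± 0.54, adjusted p = 0.0872). Without cave liver 2, 14 members were called higher, and without cave liver 3, 1 was.

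**Figure D4:**
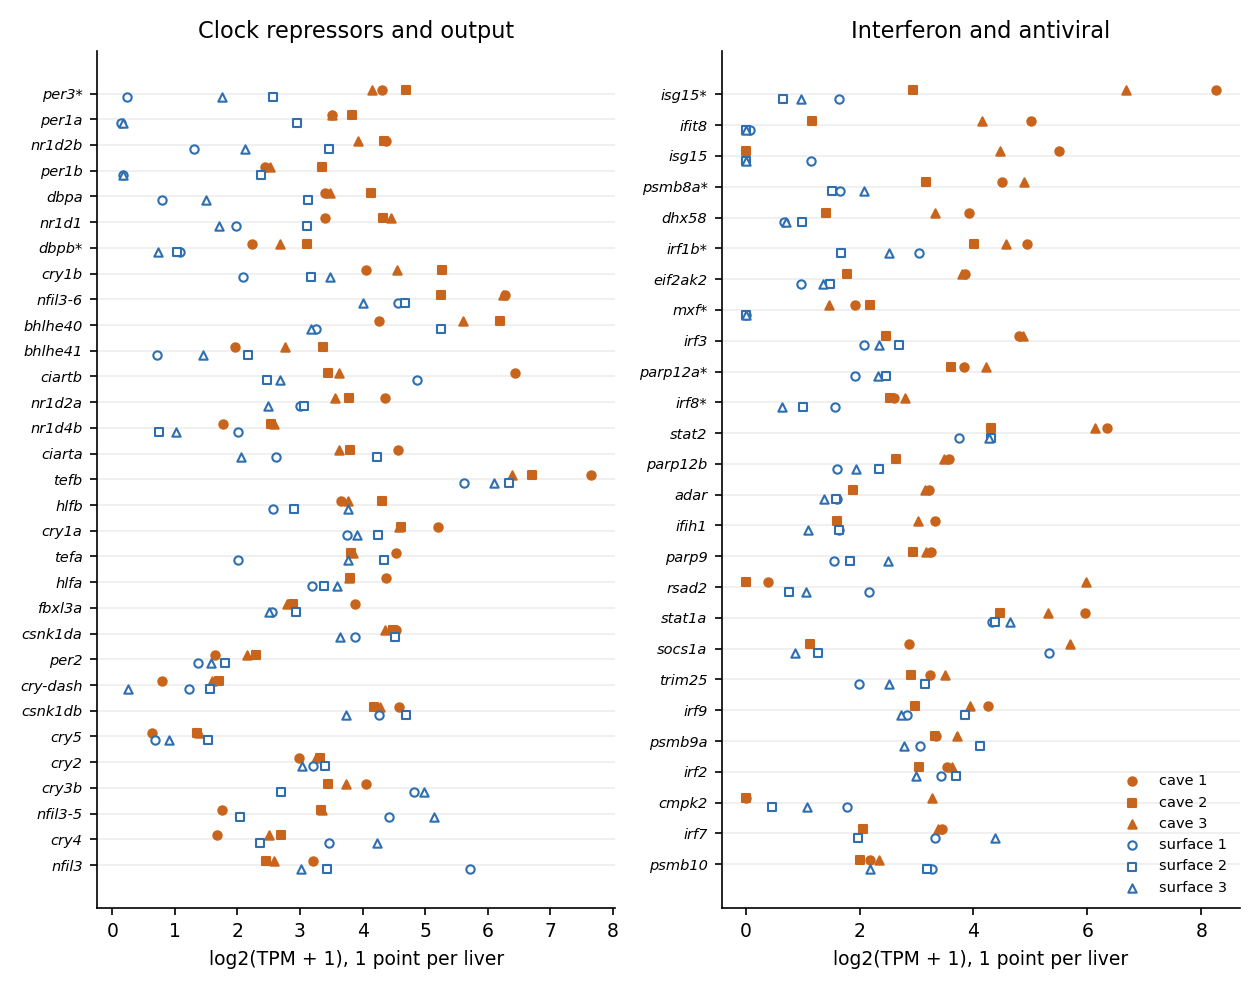
Each row is a tested gene of the clock repressor and output list (left) or the interferon list (right), and each marker a liver at its log2(TPM + 1), cave filled orange and surface open blue, with circles, squares and triangles for livers 1, 2 and 3; asterisks mark called genes. In the left panel surface liver 2 (open squares) is the highest surface liver in 21 of 31 genes. In the right panel cave liver 2 (filled squares) is the lowest cave liver in 24 of 26.

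Antigen presentation had 5 higher and 19 not passing of 24 (4.86% of all genes were called higher). Of the 24, 11 were wholly higher, against 18.7% of all genes, and the median was 0.80, against 0.10 for all genes. Among them was psmb8a, which is on both lists. The peptide trimmer erap2 had 6.12, 2.92 and 4.96 TPM in cave livers, against 0.49, 0.6 and 0.56 TPM in surface livers (1.83 ± 0.26, adjusted p = 0.00543). The peptide transporter tap1 had 13.1, 8.59 and 9.2 TPM in cave livers, against 3.52, 5.01 and 3.0 TPM in surface livers (1.22 ± 0.28, adjusted p = 0.0407). The class II regulator ciita had 1.71, 1.43 and 1.0 TPM in cave livers, against 0.14, 0.09 and 0.26 TPM in surface livers (1.02 ± 0.19, adjusted p = 0.0171), low in all livers. A beta-2-microglobulin copy (ENSAMXG00000011344) had 16.4, 6.24 and 44.4 TPM in cave livers, against 1.9, 1.11 and 2.12 TPM in surface livers (2.74 ± 0.60, adjusted p = 0.0337). None of these overlapped between the forms. The abundant light chain gene b2ml stood at 855, 463 and 908 TPM in cave livers, against 700.4, 239.7 and 421 TPM in surface livers (0.78 ± 0.46, adjusted p = 0.377) and did not pass. Immune cell markers did not share 1 pattern. None of 6 tested neutrophil markers was called by limma, with 3 positive and 3 negative differences, a median of -0.20 and 3 unadjusted p under 0.05. The summed level of 22 lymphocyte markers was 21.9 to 25.1 TPM in cave and 6.69 to 15.95 TPM in surface livers. Of 22 tested macrophage markers, 1 was higher, 1 lower and 20 did not pass. Of the 22, 19 had positive differences, 12 had an unadjusted p under 0.05 by limma, and 10 were wholly higher (18.7% of all genes were). Their median was 0.85, against 0.10 for all genes. The summed level of 37 markers, of which 2 were listed at 0 in all 6 livers, overlapped at 603 to 1086 TPM in cave and 699 to 1357 TPM in surface livers. An abundant MFAP4 copy in that sum (ENSAMXG00000037154) averaged 306 TPM in cave and 519 TPM in surface livers. Cave liver 2, the lowest for interferon genes, was the highest cave liver in 13 of the 22 macrophage markers. The leukocyte marker PTPRC stood at 8.54, 10.1 and 9.23 TPM in cave livers, against 4.99, 2.36 and 4.62 TPM in surface livers (1.09 ± 0.29, adjusted p = 0.0695). In whole liver, more cells of a type and more RNA per cell cannot be told apart, and the part of immune cells in these lists was not tested.

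Calls among the secreted plasma proteins went both ways. Complement had 2 higher, 2 lower and 21 not passing of 25 (4.86% of all genes were called higher and 2.2% lower). Besides c4, a c1s copy (ENSAMXG00000030391), a protease of the classical pathway, was higher at 301, 333 and 378 TPM in cave livers, against 62.4, 168 and 72.3 TPM in surface livers (1.87 ± 0.41, adjusted p = 0.0334). Another c1s copy (ENSAMXG00000010657) overlapped and did not pass, with means of 276 TPM in cave and 239 TPM in surface livers (0.23 ± 0.29, adjusted p = 0.701). Factor D, cfd, a protease of the alternative pathway, was lower at 0.54, 0.35 and 0.14 TPM in cave livers, against 3.69, 3.71 and 5.86 TPM in surface livers (-2.0 ± 0.24, adjusted p = 0.00263). The c3 gene c3b.2 was lower too, with 186, 189 and 161 TPM in cave livers, against 413, 463 and 392 TPM in surface livers (-1.24 ± 0.26, adjusted p = 0.027). Acute phase and iron genes had 1 higher, 2 lower and 20 not passing of 23. The iron carrier SLC11A2 was higher at 63.7, 49.2 and 49.1 TPM in cave livers, against 11.6, 22.7 and 5.27 TPM in surface livers (2.15 ± 0.47, adjusted p = 0.0342). Haptoglobin hp, a scavenger of free haemoglobin, was lower at 571, 266 and 319.6 TPM in cave livers, against 1380.4, 764 and 1320.1 TPM in surface livers (-1.61 ± 0.39, adjusted p = 0.0487). The cytokine receptor il6r had 87.6, 82.5 and 95.96 TPM in cave livers, against 293, 393 and 226 TPM in surface livers (-1.73 ± 0.30, adjusted p = 0.0131). Of 21 coagulation genes 1 was lower, f7i, of the factor VII family, at 18.9, 22.01 and 22 TPM in cave livers, against 83.2, 88.4 and 65.8 TPM in surface livers (-1.86 ± 0.27, adjusted p = 0.0057), and no liver of a form came near the other form. Of the 21, 15 had negative differences, and the median was -0.25, against 0.10 for all genes. Wholly below the surface livers lay 5 (8.66% of all genes did), and 2 lay wholly above (18.7% of all genes did).

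Amino acid lists had few called genes each. Of 23 aromatic amino acid genes, 2 were higher and 1 lower. Besides hpdb, the tryptophan-degrading enzyme ido1 was higher at 74.5, 62.6 and 64.4 TPM in cave livers, against 8.18, 8.07 and 15.7 TPM in surface livers (2.61 ± 0.33, adjusted p = 0.00296). The pterin synthesis enzyme gch2 was lower at 2.54, 5.22 and 4.53 TPM in cave livers, against 12.1, 12.8 and 23.1 TPM in surface livers (-1.72 ± 0.35, adjusted p = 0.0242). Of 42 nitrogen, glutamate and urea genes, 1 was higher, 1 lower (glud1a) and 40 did not pass. The higher gene was proline dehydrogenase prodha, at 37.9, 7.68 and 3.83 TPM in cave livers, against 0.09, 0.12 and 0.48 TPM in surface livers (3.27 ± 0.68, adjusted p = 0.026), with cave liver 1 well above the others. Branched-chain amino acid breakdown had 1 higher of 23, the dehydrogenase subunit bckdha, at 51.5, 54.99 and 41.1 TPM in cave livers, against 8.66, 21.9 and 19.98 TPM in surface livers (1.58 ± 0.38, adjusted p = 0.0499). Of the 23, 18 had positive differences, with a median of 0.48, against 0.10 for all genes. Wholly above the surface livers lay 8 (18.7% of all genes did), and none lay wholly below (8.66% of all genes did). Of 28 amino acid carriers 1 was lower, slc7a10a, at 0.18, 1.47 and 0.54 TPM in cave livers, against 7.7, 3.98 and 2.57 TPM in surface livers (-1.702 ± 0.40, adjusted p = 0.0428). None of 39 one-carbon, glycine and sulphur genes was called by limma, and 10 had an unadjusted p under 0.05. Of the 39, 29 had positive differences, 7 lay wholly above the surface livers (18.7% of all genes did), and the median was 0.41.

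Detoxification enzymes went both ways. Of 33 cytochrome P450 and conjugation genes, 3 were higher, 3 lower and 27 did not pass (4.86% of all genes were called higher and 2.2% lower). The enzyme cyp1a, induced through the aryl hydrocarbon receptor, was higher at 10.2, 27.1 and 44.5 TPM in cave livers, against 1.4, 2.81 and 2.9 TPM in surface livers (2.88 ± 0.51, adjusted p = 0.0133). The broad-range enzyme cyp3a65 had 44.3, 36.6 and 46.1 TPM in cave livers, against 13.4, 4.28 and 9.21 TPM in surface livers (2.23 ± 0.39, adjusted p = 0.0136). A gstt1b copy (ENSAMXG00000014181) was higher at 6.2, 5.59 and 6.37 TPM in cave livers, against 1.65, 2.88 and 2.6 TPM in surface livers (1.08 ± 0.24, adjusted p = 0.037). The forms did not overlap in these 3 higher genes. More abundant gstt1b copies did not pass. ENSAMXG00000033673 averaged 204 TPM in cave and 113 TPM in surface livers (0.95 ± 0.39, adjusted p = 0.212). ENSAMXG00000035085 averaged 173 TPM in cave and 127 TPM in surface livers (0.71 ± 0.54, adjusted p = 0.498). Another glutathione transferase, gstt1a, was lower at 102, 143 and 131 TPM in cave livers, against 268, 1158 and 626 TPM in surface livers (-2.21 ± 0.51, adjusted p = 0.0421). Also lower was cyp2ad6, with 2.42, 1.28 and 4.95 TPM in cave livers, against 31.1, 138 and 16.6 TPM in surface livers (-3.58 ± 0.73, adjusted p = 0.0246). The fatty acid hydroxylase cyp4v7 had 259, 203 and 299 TPM in cave livers, against 922, 706 and 1382 TPM in surface livers (-1.94 ± 0.34, adjusted p = 0.0124).

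Of 41 antioxidant genes, 3 were higher and 38 did not pass (4.86% of all genes were called higher). The lipid peroxidase gpx4a stood at 1160.5, 1169 and 1094 TPM in cave livers, against 311, 239 and 608 TPM in surface livers (1.67 ± 0.37, adjusted p = 0.0357). The methionine sulphoxide reductase msrb1b had 77.5, 111 and 59.5 TPM in cave livers, against 9.57, 14.8 and 10.9 TPM in surface livers (2.68 ± 0.33, adjusted p = 0.00277). A metallothionein copy named mt2 (ENSAMXG00000035436) stood at 60.4, 107 and 137 TPM in cave livers, against 37.5, 7.36 and 15.6 TPM in surface livers (2.47 ± 0.57, adjusted p = 0.0426). A far more abundant mt2 copy (ENSAMXG00000043108) overlapped and did not pass (-0.48 ± 0.91, adjusted p = 0.807). Its levels were 2235, 2814 and 3841 TPM in cave livers, against 19138, 1049 and 3239 TPM in surface livers. For gpx4a and the called mt2 copy the least separated liver was a surface liver, number 3 for gpx4a and number 1 for mt2. Of 84 oxidative phosphorylation genes, 3 were higher (4.86% of all genes were) and 81 did not pass. Negative differences numbered 58, and the median was -0.16. With median-of-ratios scaling 2 were called higher and 2 lower. The 3 called higher without that scaling are subunits of cytochrome c oxidase. The gene cox4i1l had 21.4, 13.7 and 8.83 TPM in cave livers, against 2.19, 1.59 and 0.94 TPM in surface livers (2.55 ± 0.36, adjusted p = 0.00502). The gene cox6b1 had 85.96, 64.6 and 41.9 TPM in cave livers, against 1.64, 8.2 and 7.51 TPM in surface livers (3.403 ± 0.52, adjusted p = 0.00748). The gene cox5b2 had 73.4, 78.4 and 88.1 TPM in cave livers, against 25.4, 32.4 and 35.6 TPM in surface livers (1.34 ± 0.27, adjusted p = 0.0246). None of 31 hypoxia response genes was called by limma (4 had an unadjusted p under 0.05, and median-of-ratios scaling called none). Of 52 cell cycle genes 12 were tested and 1 was higher, the kinase cdk1, at 2.86, 3.44 and 3.69 TPM in cave livers, against 0.27, 0 and 0.41 TPM in surface livers (1.83 ± 0.21, adjusted p = 0.00219). It passed the filter through the cave livers only, so only a rise could be tested.

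Proteasome levels of cave livers lay below those of surface livers 1 and 2, at about the level of surface liver 3. Of 52 tested, 1 was called higher, psmb8a, and 1 lower, the regulatory subunit psmd13, at 6.36, 6.77 and 6.77 TPM in cave livers, against 26.4, 24.6 and 11.8 TPM in surface livers (-1.45 ± 0.34, adjusted p = 0.0455). Negative differences numbered 45, and the list median was -1.02. The summed level was 1515, 1335 and 1374 TPM in the cave livers, against 3852, 4606 and 1472 TPM in the surface livers. Surface liver 3 was the lowest surface liver in 48 of the 52 genes, and without it 36 were called lower. Heat shock proteins and chaperonins showed a like pattern, with none of 41 called, 33 negative differences and a median of -0.40, and 5 called lower without surface liver 3. By limma 4 of the 41 had an unadjusted p under 0.05.

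Surface liver 2 stood apart in the unfolded protein response, the set that folds and clears proteins of the endoplasmic reticulum. It was the highest surface liver in 45 of 49 genes, and the summed level was 3796, 1851 and 2109 TPM in the cave livers, against 1514, 5825 and 1389 TPM in the surface livers. None of the 49 was called by limma, 3 had an unadjusted p under 0.05, and 5 were called higher without surface liver 2. The chaperone hspa5 stood at 34.4, 47.4 and 62.3 TPM in cave livers, against 42.5, 308 and 12.3 TPM in surface livers (-0.24 ± 0.99, adjusted p = 0.917). Ribosomal protein genes had 80 of 83 differences positive, 31 wholly higher in cave livers (18.7% of all genes were) and a median of 0.47, against 0.10 for all genes; with median-of-ratios scaling the median was 0.29, against -0.04. None was called by limma, 8 had an unadjusted p under 0.05, and the fit of all 12 libraries called 1 higher. Cave liver 1 was the lowest cave liver in 78 of the 83 and surface liver 2 the lowest surface liver in 80.

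**Figure D5:**
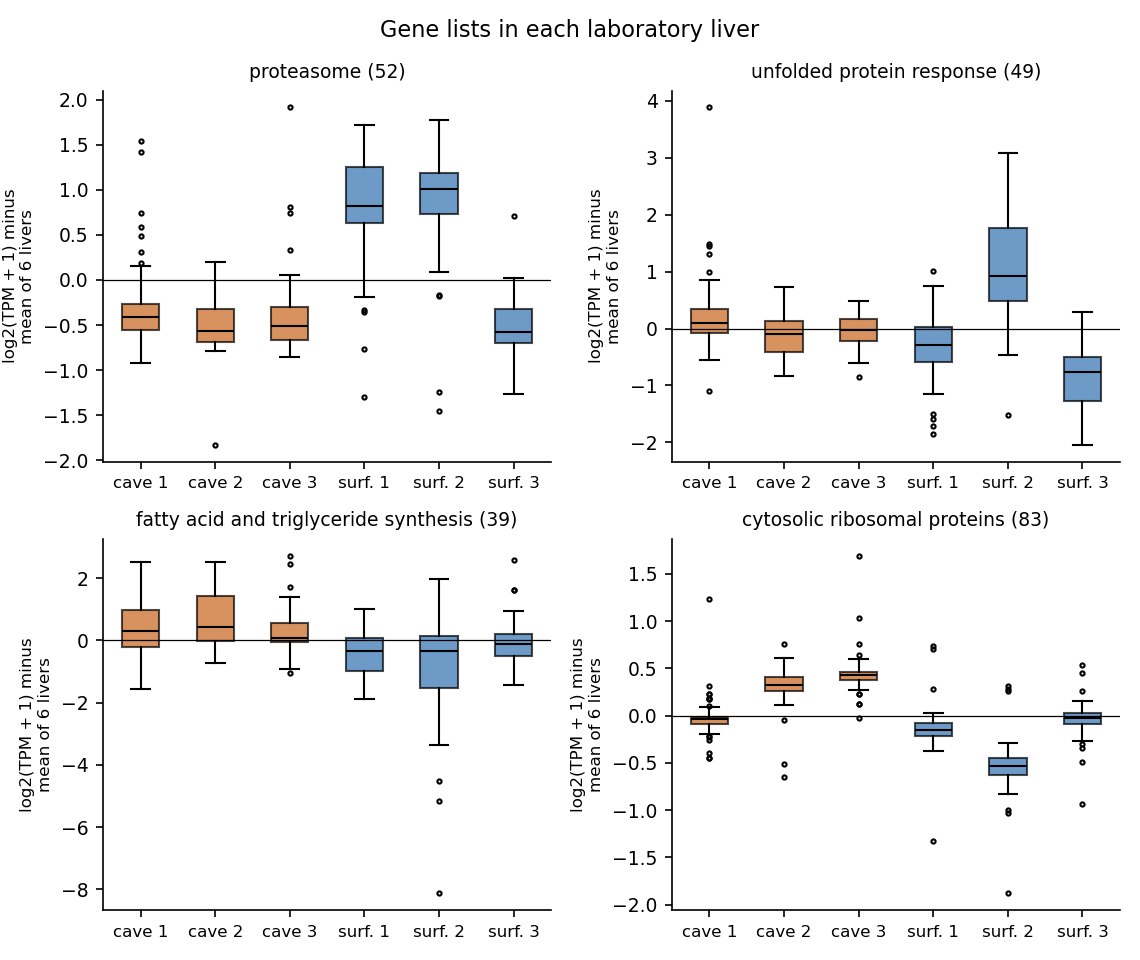
Boxes show, for each laboratory liver on the x axis (cave orange, surface blue), the tested members of 4 lists at log2(TPM + 1) minus the gene's mean over the 6 livers; the line is the median, the box the middle 50% and the whiskers reach at most 1.5 box lengths. Surface liver 3 sits with the cave livers in the proteasome panel, and surface liver 2 sits above all other livers in the unfolded protein response panel and below them in the ribosomal protein panel.

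Single livers carried very high levels of some genes, named here after their values were seen as those with the widest range within a form. The glucose-releasing enzyme pck1 stood at 8649, 50.6 and 22.7 TPM in cave livers, against 389.6, 132 and 246 TPM in surface livers (-0.09 ± 1.95, adjusted p = 0.984), so cave liver 1 exceeded all others. The insulin-like growth factor binding protein genes igfbp1a and igfbp1b, which rise with fasting in mammals, were also highest there. Levels of igfbp1a were 1089.6, 43.4 and 7.66 TPM in cave livers, against 300.2, 234 and 24.4 TPM in surface livers. Levels of igfbp1b were 621, 4.82 and 5.81 TPM in cave livers, against 263, 85.4 and 79.4 TPM in surface livers. The glutathione-degrading enzyme chac1 was also highest in cave liver 1, at 1454, 102 and 66.1 TPM in cave livers, against 109.9, 33.5 and 22.97 TPM in surface livers. The sialic acid esterase siae stood at 3.25, 2.04 and 1.78 TPM in cave livers, against 463, 346 and 1.95 TPM in surface livers, so surface liver 3 had the cave level. None of these genes was called.

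Exocrine pancreas tissue lies in or beside the liver of many bony fishes. All 16 tested pancreas markers had negative differences and 2 were called lower (2.2% of all genes were). The summed level was 547, 4876 and 1731 TPM in the cave livers, against 6418, 2719 and 8003 TPM in the surface livers, so the forms overlapped. The lipase-related gene PNLIPRP2 stood at 5.33, 68.7 and 25.9 TPM in cave livers, against 561, 349.8 and 852 TPM in surface livers (-4.596 ± 0.81, adjusted p = 0.0133). The secretory granule gene cuzd1.2 had 0.02, 0 and 0 TPM in cave livers, against 4.04, 1.44 and 3.26 TPM in surface livers (-1.89 ± 0.28, adjusted p = 0.0064). The abundant amylase copy (ENSAMXG00000036692) stood at 175, 1542 and 682 TPM in cave livers, against 1339, 449 and 1674 TPM in surface livers (-0.81 ± 0.81, adjusted p = 0.616). The order of livers for PNLIPRP2 within each form is that of the summed pancreas markers, and their part in its call was not tested.

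The remaining cell marker lists, hepatocyte markers apart, had 1 called gene each at most. Of 25 tested hepatocyte markers, 2 were called (7.06% of all genes were) and 16 had negative differences. Wholly below the surface livers lay 7 (8.66% of all genes did), and 3 lay wholly above (18.7% of all genes did). Their median was -0.14, against 0.10 for all genes. Endothelial markers had 1 higher and 16 not passing of 17, a share near the 4.86% of all genes. Of the 17, 8 were wholly higher (18.7% of all genes were), and the markers summed to 71.8 to 94.3 TPM in cave and 49.3 to 53.5 TPM in surface livers. The called gene was the lymphatic and sinusoidal marker lyve1b, at 11.5, 4.89 and 5.71 TPM in cave livers, against 1.6, 2.12 and 0.17 TPM in surface livers (1.9 ± 0.44, adjusted p = 0.0421). Stellate cell and fibroblast markers had 1 higher, timp2a, of 13, and summed to 697 to 1266 TPM in cave and 497 to 662 TPM in surface livers. Of 18 bile duct and epithelial markers 10 were tested and 1 was higher, epcam, at 3.89, 4.16 and 2.27 TPM in cave livers, against 0.8, 0.09 and 0.72 TPM in surface livers (1.54 ± 0.29, adjusted p = 0.0169). Of 5 tested lymphocyte markers 1 was higher, the chemokine receptor ccr9a, at 7.28, 5.31 and 4.65 TPM in cave livers, against 2.49, 1.2 and 1.5 TPM in surface livers (1.31 ± 0.27, adjusted p = 0.0266). The egg yolk gene vtg3, made by the liver under oestrogen, stood at 109, 653 and 539 TPM in cave livers, against 543, 5.8 and 619.6 TPM in surface livers (1.36 ± 1.65, adjusted p = 0.689); limma called none of 6 yolk and oestrogen response genes, 1 had an unadjusted p under 0.05. The labels name no sex. Of 19 gonad markers 3 were tested and 1 was higher, gsdf, at 2.84, 2.62 and 3.15 TPM in cave livers, against 0.11, 0.99 and 0.46 TPM in surface livers (1.39 ± 0.25, adjusted p = 0.0153). Both epcam and gsdf passed the filter through the cave livers only, so only a rise could be tested.

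Genes listed at 0 in all 3 livers of a form while the other form averaged at least 5 TPM numbered 21 for cave and 18 for surface livers. Of the 21, 14 have no symbol, 11 were also listed at 0 in all wild-caught cave livers, and 4 reached 1 TPM in all wild-caught surface livers. Of the 18, 13 have no symbol, 4 were also listed at 0 in all wild-caught surface livers, and 13 reached 1 TPM in all wild-caught cave livers. The phosducin gene pdca, named for its role in photoreceptors, was at 8.41, 10.4 and 9.88 TPM in cave livers, the receptor gene ghrhra at 12.1, 5.92 and 6.79 TPM and the repressor gene her8a at 3.41, 7.3 and 7.24 TPM, all listed at 0 in the surface livers. The extracellular matrix gene optc and the synaptic vesicle gene sypa were listed at 0 in the cave livers; in surface livers optc was at 14.7, 1.97 and 23.2 TPM and sypa at 4.69, 17.1 and 7.73 TPM.

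The gene with the largest difference in each direction has no symbol in the table. Every cave liver had 0 TPM listed for ENSAMXG00000018103, which stood at 603, 1275 and 916 TPM in surface livers (adjusted p = 9.90e-06). ENSAMXG00000032562 stood at 0.59, 1.81 and 0.82 TPM in cave livers, against 378, 691 and 587 TPM in surface livers (-8.06 ± 0.36, adjusted p = 3.86e-05). In the other direction, ENSAMXG00000033138 stood at 418, 369.7 and 415 TPM in cave livers, against 0.02, 0.05 and 0.02 TPM in surface livers (8.61 ± 0.24, adjusted p = 7.48e-06). ENSAMXG00000035519 had 258, 272 and 304 TPM in cave livers, against 0, 1.52 and 0 TPM in surface livers (7.68 ± 0.40, adjusted p = 8.58e-05). What these genes encode is not annotated in the files used here.

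The wild-caught fish share no library with the laboratory fish. Of the 855 called laboratory genes, 570 were also tested there, and most of these had the same direction. Of 570 called genes also tested in the wild-caught livers, 416 (73.0%) had the same sign, against 5836 of 10439 (55.9%) of all genes tested in both. The share was 68.8% for genes higher and 81.6% for genes lower in cave livers, and this order turned round with median-of-ratios scaling, to 81.6% for genes higher and 70.8% for genes lower. In the wild-caught comparison 22.9% of its genes were called. Of the 570, 209 were called there with the same sign (36.7%, against 15.8% of all genes tested in both) and 23 with the opposite sign. These counts rest on single wild-caught libraries: the 209 became 109, 93 and 101 without wild-caught cave liver 1, 2 and 3 in turn, and 139, 117 and 234 without wild-caught surface liver 1, 2 and 3 in turn. The share of all genes was then 1.95% to 3.95%, and 26.9% without wild-caught surface liver 3. With median-of-ratios scaling the shares of equal sign were 76.4% of called genes and 62.6% of all genes. The calls also depended on that scaling. Of genes tested in both, 891 were then called in the wild-caught livers, against 2328 without it. Of 615 called laboratory genes, 179 were then called there with the same sign (29.1%, against 6.80% of all genes) and 7 with the opposite sign. The median wild-caught difference was -0.54 without the scaling and -0.04 with it.

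Among the genes above, cbln5 was at 0 in all 3 wild-caught cave livers, against 177, 218 and 407 TPM in wild-caught surface livers. Levels of nisch were 6.65, 12.1 and 21.5 TPM in wild-caught cave livers, against 0.75, 1.23 and 1.3 TPM in wild-caught surface livers. Both genes kept the forms apart. Levels of f7i were 17.5, 16.4 and 26.7 TPM in wild-caught cave livers, against 46.6, 62.5 and 63.96 TPM in wild-caught surface livers. Those of dbpb were 3.44, 3.0 and 7.26 TPM in wild-caught cave livers, against 2.12, 0.38 and 0.7 TPM in wild-caught surface livers. In each of these 4 genes the wild-caught forms did not overlap and kept the direction of the laboratory fish. The summed clock repressor and output list, to which dbpb belongs, did overlap there. It stood at 159, 270 and 247 TPM in wild-caught cave livers, against 237, 232 and 220 TPM in wild-caught surface livers. Hepatic lipase lipca went the other way, at 266, 248 and 189 TPM in wild-caught cave livers, against 1.67, 2.38 and 54.05 TPM in wild-caught surface livers. For psmb8a, from the interferon list, the wild-caught levels were also opposite, at 15.4, 15.9 and 4.12 TPM in wild-caught cave livers, against 51.5, 111 and 65.7 TPM in wild-caught surface livers. The difference of the form effects between laboratory and wild-caught fish was called for 658 genes (5.43%), and for 272 after median-of-ratios scaling. Without that scaling it was called for 261 of the 855 called laboratory genes. The laboratory livers that chose those genes are part of that test.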

How the data were processed

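RNA was measured in 6 laboratory livers, 3 cave and 3 surface, with 6 wild-caught livers as a separate comparison. The authors deposited TPM values, 1 column per liver, made with STAR 2.6.1c and RSEM after bcl2fastq 2.18, per the submitters' processing notes. Neither build nor annotation nor the version of RSEM is given in the sources used here; coordinates and sequences are therefore left out. TPM keeps no depth, so the precision of single values is unknown. TPM also sums to a fixed total, so a few abundant genes move all others. Symbols came from the deposited table (18362 of 27420 genes).

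Genes were tested where 3 or more of the 6 livers reached 1 TPM, on log2(TPM + 1) with limma 3.58.1 in R 4.3.3 (lmFit, eBayes with trend, two-sided, Benjamini-Hochberg, threshold 0.05). The same fit was made for the 6 wild-caught livers, and all 12 gave the test of the difference between environments. On simulated data for the laboratory comparison, over 12113 genes, 56 of 100 genes with a set log2 difference of 2 and 88 of 100 with 4 were called, with 9 false calls. The changed genes had a mean log2(TPM + 1) above 3, and noise was drawn for each gene on its own. Spread shared by many genes of a liver was not simulated, so these counts need not hold for the real livers. Gene lists (33 of pathways, 14 of cell markers) were matched by symbol.

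Named genes were the 15 largest rises and falls among called genes with a unique symbol, 10 TPM or more on average in the higher form and no overlap. To these came called list members, abundant members of lists with few calls, clock and immune list members, and genes listed at 0 in a form. The comparison, lists and rules were chosen with earlier results of these data known. The alternatives tried were scaling by median-of-ratios factors or quantiles, leaving out the 50 genes with the most transcripts, a filter of 5 TPM or none, a pseudocount of 0.1, the fit of all 12 libraries, robust moderation, the replicate number as a block and each library left out. The values of 1 further gene that passed the test are not reported here.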

Additional observations from a re-analysis of the deposited data

Results flagged for a closer look

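The effect of form differed between laboratory and wild-caught fish in 11 of the 30 genes shown in the plot of the largest differences, which holds only called genes with a symbol of their own, by limma's test of the interaction over 12113 genes, of which 5.43% passed. Values are the laboratory difference minus the wild-caught difference (log2 scale), and the laboratory livers that chose these genes are part of them. Of the 855 called laboratory genes, 261 passed this test. It used no median-of-ratios scaling, with which 272 of all genes passed, and results of the 11 with that scaling are not given here.

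Hepatic lipase lipca had an interaction of log2 -10.33 ± 1.26, adjusted p = 0.00246: it was lower in cave livers in the laboratory and stood at 266, 248 and 189 TPM in wild-caught cave livers, against 1.67, 2.38 and 54.05 TPM in wild-caught surface livers. Complement c4 (log2 7.27 ± 1.42, adjusted p = 0.0175) stood at 14.4, 77.95 and 77.03 TPM in wild-caught cave livers, against 212, 370.2 and 259 TPM in wild-caught surface livers. Glutamate dehydrogenase glud1a (log2 -8.45 ± 0.60, adjusted p = 3.66e-05) overlapped in the wild, at 99.98, 65.01 and 167 TPM in wild-caught cave livers, against 44.5, 72.1 and 124 TPM in wild-caught surface livers. The urate pathway gene urahb (log2 -4.40 ± 0.87, adjusted p = 0.0185) and nrp1b (log2 -3.98 ± 0.74, adjusted p = 0.0143) also overlapped there. Myoglobin mb (log2 4.71 ± 1.21, adjusted p = 0.0436) stood at 8.62, 16.1 and 1.59 TPM in wild-caught cave livers, against 37.7, 1.72 and 18.9 TPM in wild-caught surface livers.

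For rgs11 (log2 -2.05 ± 0.35, adjusted p = 0.011), smpx (log2 2.39 ± 0.59, adjusted p = 0.0407) and cdcp1a (log2 1.53 ± 0.26, adjusted p = 0.00982) the wild-caught fish had the laboratory direction, with a smaller difference. Wild-caught levels of the first 2 were low. For rgs11 they were 0 in cave livers, against 2.3, 2.2 and 0.79 TPM in surface livers. For smpx they were 1.27, 3.19 and 3 TPM in cave livers, against 0, 0.32 and 0.47 TPM in surface livers. The genes hpdb (log2 4.84 ± 1.04, adjusted p = 0.0255) and slc13a4 (log2 5.20 ± 0.30, adjusted p = 5.44e-06) were below 2 TPM in all 6 wild-caught livers. Even so, hpdb had the laboratory direction there, at 0.36, 1.79 and 0.77 TPM in wild-caught cave livers, against 0 in all wild-caught surface livers. Dixon's test for an outlying sample was not run.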

How the results depend on the processing

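With the filter at 5 TPM, 368 genes were called, 241 higher and 127 lower, and 1782 did not overlap between forms; 6598 genes were then tested. Leaving out 1 library at a time gave 493 to 968 calls, 329 to 656 higher and 164 to 423 lower. Genes without overlap then numbered 3906 to 5388, against 3310 with all 6 livers. A gene without overlap keeps that state when a liver is left out, so this count cannot fall. The interaction was called for 272 genes with median-of-ratios scaling, against 658 without. The other settings kept each count within 1.5 times its value: 757 to 979 genes were called. No named call reversed; of 90 named called genes, 37 were called under every alternative. The cause of the other changes was not tested.

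Residual correlations of same-numbered cave and surface livers were 0.081, -0.059 and 0.071, and those of the other pairs ran from -0.130 to 0.107. With 3 livers a form, these values cannot decide whether the numbers pair the livers. With a replicate block, 774 genes were called, 527 higher and 247 lower, of which 691 were shared with the fit without it. The share of called genes with the same direction in wild-caught fish was 70.4% to 74.9% with any wild-caught library left out. Unknown depth limits low genes most, and 3 livers a form allow no exact permutation p under 0.1.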
